A study of Sus scrofa with 6 samples.

Results

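The genes described here are the cyclins, cyclin-dependent kinases (CDKs) and CDK inhibitor that act at the G1/S transition, together with the retinoblastoma gene RB1. They were chosen by name from a list of 10, and 9 of the 10 were found among the gene names of the deposited abundance table, which holds 17678 genes. The tenth, CCNE1, was found through its Ensembl identifier, whose row carries no name in the table. A second row, ENSSSCG00000037597, also carries no name there but has the symbol CDK2 in the reference table of identifiers, so 2 rows are reported for CDK2. Of these 11 rows, 9 had a mean of at least 10 over all libraries and were tested.

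Porcine oocytes from the ovaries of crossbred (Landrace × Yorkshire × Duroc) pigs were matured in vitro. They were injected with either a non-specific siRNA (NC) or siRNAs against SIN3A (KD). The paper lists 3 siRNAs against SIN3A and does not state whether they were injected as a mixture. SIN3A is the scaffold of a corepressor complex that carries histone deacetylases. Oocytes of both groups were then activated parthenogenetically by electric pulses, cycloheximide and cytochalasin B, without sperm. Messenger RNA of 2-cell embryos was sequenced 32 h after activation in 3 NC and 3 KD replicates of 20 pooled embryos each. The comparison asks which transcripts differ after SIN3A depletion. Parthenotes have no paternal genome.

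In somatic cells the D-type cyclins are made in response to growth signals and activate CDK4 and CDK6, which phosphorylate the RB1 protein. Phosphorylated RB1 releases E2F transcription factors, and their targets include the E-type cyclins, which activate CDK2 and start DNA replication. CDKN1B encodes p27, an inhibitor that binds cyclin E-CDK2 and cyclin D-CDK4 complexes. The paper describes early development as reliant on messenger RNA and proteins stored by the oocyte, especially before the embryonic genome is activated. It places this activation in pig embryos after the stage sequenced here. Transcription across the genome is, by the paper's account, generally thought to be silent at the sequenced stage. Stored and newly made transcripts were not told apart here, so the values are not a measure of ongoing transcription.

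Each family can be recognised by a short stretch of its coding sequence, shown here because paralogues with like sequences could exchange reads when reads are assigned to transcripts. The sequences are read 5′ to 3′ on the coding strand of the RefSeq annotation of Sscrofa11.1. In the kinases the capitals mark the codons of the PSTAIRE-type helix that contacts the cyclin, all in the second exon. They lie at chr5:21366816-21366836 on the plus strand for CDK2, at chr5:23041261-23041281 on the minus strand for CDK4 and at chr9:72762080-72762100 on the minus strand for CDK6.
CDK2: gtaCCCAGTACTGCCATTCGAGAGatc
CDK4: ctgCCCATCAGCACGGTTCGTGAAgtg
CDK6: atgCCGCTCTCCACCATCCGCGAGgtg
In the D-type cyclins the capitals mark the codons of the leucine-cysteine-glutamate motif with which they bind RB1, in the first exon of the transcript read. They lie at chr2:3633107-3633121 for CCND1, chr5:66114314-66114328 for CCND2 and chr7:37094792-37094806 for CCND3, all on the minus strand.
CCND1: caccagCTCCTGTGCTGCGAGatggag
CCND2: atggagCTGCTGTGCTGCGAGgtggac
CCND3: atggagCTGCTGTGCTGCGAGggcacc
Over the 21 bases of the helix each pair of kinases differed at 9 bases. Over the 15 bases of the RB1-binding motif CCND2 and CCND3 were identical, and CCND1 differed from each at 1 base. Over whole RefSeq transcripts, stretches of 31 bases shared between genes of the group were nearly absent. There were 2 in CCND1, 2 in CDK6 and 0 in the other genes. Sharing between the 2 rows reported for CDK2 was not examined. RefSeq lists the 4 CDK6 transcripts without a coding sequence, and the stretch shown was read from one of them.

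Other genes shared more sequence. CCNE1 had 38.8% of its 2751 stretches of 31 bases in common with other loci, 924 of them with LOC110259300 on chromosome 2 and 431 with a pseudogene on chromosome 10. CCND3 on chromosome 7 overlaps TAF8 on the opposite strand over 3193 bases, and 18.6% of its stretches were shared with it. CCNE2 on chromosome 4 overlaps INTS8 on the opposite strand over 1153 bases, and 25.9% were shared. Use of strand in the counting is not given in the sources used here. The values of CCND3 and CCNE2 may therefore include reads of these neighbours. Those of CCNE1 may include reads of its copies on other chromosomes. TAF8 had a mean of 1619 ± 61.3 (SD, n = 3) in the NC and 1704 ± 100.4 (SD, n = 3) in the KD group, close to that of CCND3, and INTS8 one of 30.9 ± 4.86 and 30.6 ± 4.48.

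The deposited values are read estimates normalized between libraries. Their sums were 11084950 to 11500709, and the spacing of the lowest values gave an estimated depth of 7800000 to 15800000 reads per library. Spearman correlations over all genes were 0.971 to 0.976 within groups and 0.969 to 0.976 between groups. SIN3A was lower in every KD library, at 34576 ± 2534 against 2841 ± 1591 (SD, n = 3 each, NC against KD), and CCNB1, the mitotic cyclin that the study follows, with 8553 ± 717 and 1753 ± 675. Of 12 oocyte markers 10 were found by name, all were tested, and they summed to 93914 to 103274 in NC and 91075 to 111716 in KD libraries. Of 14 markers of cumulus or granulosa cells 10 were found, 3 of them at a mean of at least 10, and they summed to 179 to 273 in NC and 152 to 199 in KD libraries. VIM, FST and COL1A1 were the 3 with a mean of at least 10, and COL1A1 reached 43.7 in NC replicate 2. The other 7 were low, with PTX3 listed at 0 in all KD libraries, whereas CYP19A1, at 3.55, 0 and 1.94 in the NC libraries and 9.27, 3.26 and 10.7 in the KD libraries, was higher in KD embryos on average, with overlap between the groups.

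None of the 9 tested rows of the group differed between KD and NC embryos at an adjusted p below 0.05 by limma (0 of 9, with 0 also at an unadjusted p below 0.05). Over all 11986 genes tested 0.159% passed the adjusted p, 0.0584% as higher and 0.1% as lower in KD embryos, and 4.61% passed the unadjusted p. The log2 fold changes of the 9 rows on the log2(value + 1) scale ran from -0.71 to 0.09 with a median of -0.02, beside a median of 0.00258 over all genes tested. Positive fold changes were found in 4 rows and negative ones in 5. For 6 rows with means above 100, the 95% confidence intervals lay within 0.777-fold and 1.25-fold of the NC level, whereas those of CCND1, CCND2 and CDKN1B were wide. Each library held 20 embryos of the 2-cell stage and the values are relative to the whole library, so a change in total messenger RNA per embryo was not measured.

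**Figure D1:**
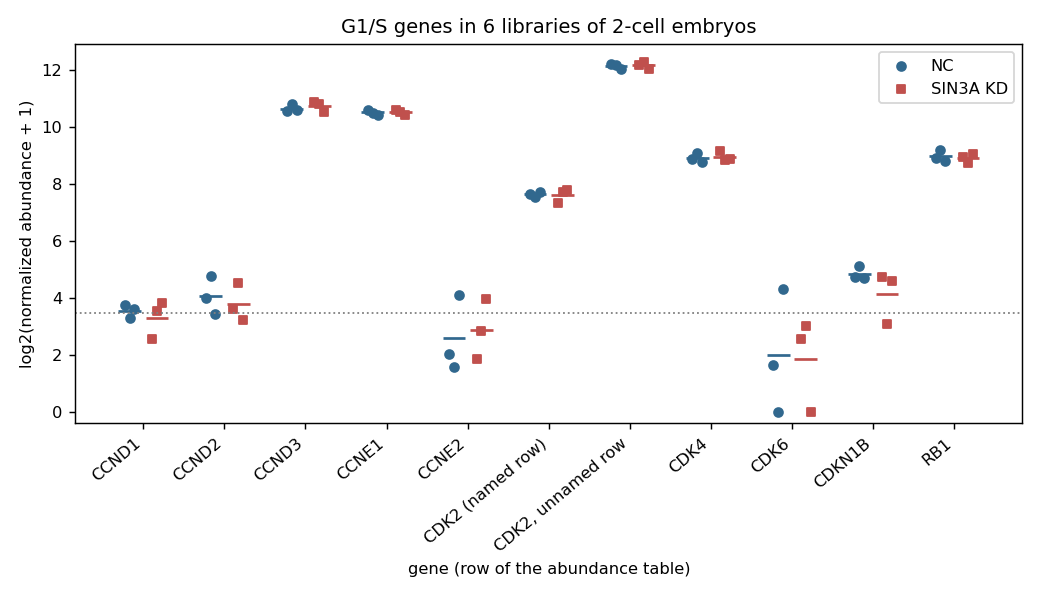
Normalized abundance of the 11 rows in each library, as log2(value + 1) on the vertical axis, with circles for NC, squares for KD, a bar for each group mean and a dotted line at a value of 10. In every row the NC and KD libraries overlap, and CCND1, CCND2, CCNE2, CDK6 and CDKN1B lie low and scatter widely.

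By the deposited values CCND3 was the main D-type cyclin transcript. The gene (ENSSSCG00000032284) spans bases 37087336 to 37182462 of chromosome 7 (minus strand). Values are given here and below in the order of replicates 1, 2 and 3. Its normalized abundance was 1491, 1782 and 1525 in the NC libraries, against 1887, 1779 and 1448 in the KD libraries. The lowest and the highest library were both KD libraries, and the groups overlapped. KD embryos differed from NC embryos by a log2 fold change of 0.09 ± 0.11 (SE), with a 95% interval from -0.15 to 0.32 and a limma adjusted p = 0.997.

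CCND1 and CCND2 were near the lower limit of what these libraries measure. CCND1 (ENSSSCG00000037900), on chromosome 2 from 3621242 to 3633380, stood at 12.5, 8.76 and 11.1 in the NC libraries, against 4.86, 10.8 and 13.2 in the KD libraries. KD replicate 1 was the lowest library and KD replicate 3 the highest, so the groups overlapped. CCND1 had a log2 fold change of -0.24 ± 0.55 (SE), and its interval ran from 0.377-fold to 1.91-fold (limma adjusted p = 0.997). CCND2 (ENSSSCG00000038694), on chromosome 5 from 66092483 to 66114575, stood at 14.8, 26.5 and 9.77 in the NC libraries, against 11.1, 21.8 and 8.35 in the KD libraries. In both groups replicate 2 was the highest and replicate 3 the lowest. CCND2 had a log2 fold change of -0.29 ± 0.51 (SE), with an interval from 0.388-fold to 1.73-fold (limma adjusted p = 0.997).

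Per kilobase of the longest RefSeq transcript, CCND3 made up 96.2% to 98.4% of the summed level of the 3 D-type cyclins in the 6 libraries. CCND2 made up 1.39% to 3.51% and CCND1 0.178% to 0.626%. By these values CCND3 led the D cyclin transcripts in each library. Its values may include reads of TAF8 on the opposite strand, and the part of these in the share was not tested. The log2 ratio of CCND2 to CCND3 was -6.57 ± 0.56 in NC and -6.95 ± 0.57 in KD libraries (SD, n = 3 each). The difference of -0.38 did not exceed the spread (exact permutation test, two-sided p = 0.5, where the smallest p that 3 against 3 allow is 0.1).

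Of the E-type cyclins, CCNE1 was abundant and CCNE2 scarce. CCNE1 (ENSSSCG00000002855), on chromosome 6 from 39919541 to 39933224, stood at 1551, 1439 and 1363 in the NC libraries, against 1520, 1479 and 1361 in the KD libraries. The replicates of both groups covered the same range. CCNE1 had a log2 fold change of 0.00290 ± 0.10 (SE, limma adjusted p = 1.0), and its interval ran from 0.87-fold to 1.15-fold, the narrowest but one of the 9 rows.

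CCNE2 (ENSSSCG00000006095), on chromosome 4 from 41802090 to 41821870, stood at 3.13, 1.99 and 16.1 in the NC libraries, against 2.65, 6.09 and 14.6 in the KD libraries. Replicate 3 was the highest in both groups. Its mean of 7.43 was below the minimum for testing, and without that filter its log2 difference was 0.31 ± 0.72 (SE, limma adjusted p = 0.996). The log2 ratio of CCNE1 to CCNE2 was 7.93 ± 1.41 in NC and 7.62 ± 1.13 (SD, n = 3 each) in KD libraries. The difference of -0.31 lay within the spread (exact permutation test, two-sided p = 0.8).

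The kinase partners showed the same division into an abundant and a scarce member. CDK4 (ENSSSCG00000025092), on chromosome 5 from 23039206 to 23041959, stood at 471, 545 and 434 in the NC libraries, against 566, 460 and 467 in the KD libraries. The highest library was a KD and the lowest an NC library, with the others mixed. CDK4 had a log2 fold change of 0.04 ± 0.13 (SE), with a 95% interval from -0.23 to 0.32 and a limma adjusted p = 0.997.

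CDK6 (ENSSSCG00000040183), the other partner of D-type cyclins, lies on chromosome 9 from 72510858 to 72765631. It stood at 2.11, 0 and 18.9 in the NC libraries, against 4.86, 7.07 and 0 in the KD libraries. It was thus listed at 0 in 1 library of each group, and NC replicate 3 alone held most of the NC signal, about 22 reads by the estimated depth. CDK6 was below the minimum for testing, and without the filter its log2 difference was -0.13 ± 0.92 (SE, limma adjusted p = 0.999). The log2 ratio of CDK4 to CDK6 was 6.93 ± 2.34 in NC and 7.10 ± 1.58 (SD, n = 3 each) in KD libraries (exact permutation test, two-sided p = 1).

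The level of CDK2, the partner of the E-type cyclins, depended on which row is taken as this gene. In RefSeq the gene lies on chromosome 5 from 21365723 to 21372170. The row that the table names CDK2, ENSSSCG00000000373, stood at 198, 186 and 207 in the NC libraries, against 160, 210 and 218 in the KD libraries. The unnamed row, ENSSSCG00000037597, stood at 4754, 4539 and 4172 in the NC libraries, against 4625, 5000 and 4178 in the KD libraries. The identifier of the named row has no symbol in the reference table, so which of them holds the reads of the CDK2 gene could not be settled. In neither row did the groups separate. The log2 fold change was -0.02 ± 0.16 (SE) for the named row and 0.03 ± 0.09 (SE) for the unnamed one, and limma gave both rows an adjusted p of 0.997.

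**Figure D2:**
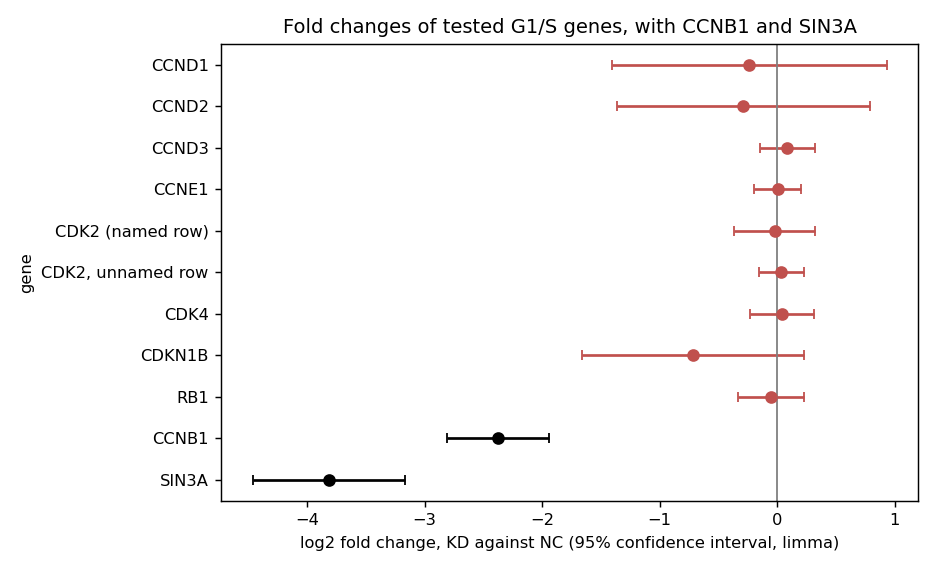
Log2 fold change of KD against NC embryos (horizontal axis) for the 9 tested rows and, in black, for CCNB1 and SIN3A, with bars for the 95% confidence interval from limma. The intervals of the 9 rows all include 0, while CCNB1 at -2.37 and SIN3A at -3.81 lie far to the left.

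CDKN1B had the largest log2 fold change of the group, at -0.71 ± 0.45 (SE), with a 95% interval from -1.66 to 0.23 and a limma adjusted p = 0.997. The gene (ENSSSCG00000037144) spans bases 59731224 to 59735831 of chromosome 5 (minus strand). Its values came to 25.5, 33.6 and 25.1 in the NC libraries, against 25.6, 7.44 and 23.2 in the KD libraries. By the estimated depth they stand for about 23 to 29 reads in NC libraries and 26, 10 and 21 reads in KD replicates 1 to 3. KD replicate 2 was far below the others, and KD replicate 1 lay among the NC libraries, so the groups overlapped (exact permutation test, two-sided p = 0.3). Without KD replicate 2 the log2 fold change was -0.18 ± 0.39 (SE, limma adjusted p = 1.0). KD replicate 2 was also the library with the least SIN3A, at 1079, and with the greatest estimated depth, 15800000 reads. The part of either in the low CDKN1B value was not tested.

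The ratio of the summed D-type cyclins to CDKN1B followed the same library. Its log2 value came to 5.84, 5.71 and 5.89 in the NC libraries, against 6.16, 7.75 and 5.93 in the KD libraries. All 3 KD libraries were above the NC libraries, and KD replicate 3 was next to NC replicate 3. The mean difference was 0.80 (exact permutation test, two-sided; p = 0.1 is the smallest that 3 against 3 allow), and it was 0.23 without KD replicate 2. This was the single one of 4 ratios in which the groups did not overlap. Among all tested genes, taken singly, 9.79% had values that did not overlap between the groups, and no such share was computed for ratios. The sum of the D-type cyclins was not corrected for length, and nearly all of it was CCND3.

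RB1 (ENSSSCG00000009401), the substrate of the cyclin D kinases, spans bases 19186754 to 19317642 of chromosome 11 (minus strand). Its values came to 480, 584 and 444 in the NC libraries, against 495, 426 and 531 in the KD libraries. NC and KD libraries were interleaved over this range. RB1 had a log2 fold change of -0.05 ± 0.13 (SE), with a 95% interval from -0.33 to 0.23 and a limma adjusted p = 0.997.

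Per kilobase of the longest RefSeq transcript, the levels in NC embryos spread over more than 3 orders of magnitude. The unnamed CDK2 row came first at 1863 ± 122 (SD, n = 3) with the length of CDK2, above 98.5% of the 14124 genes with a length and a value. CCND3 followed at 532 ± 52.9, CCNE1 at 522 ± 34.0 and CDK4 at 389 ± 45.6, all above at least 88.6% of these genes. RB1 was at 106 ± 15.4 and the named CDK2 row, also with the length of CDK2, at 81.8 ± 4.43. Which row holds the reads of CDK2 was not settled, so this length may not apply to both. CDKN1B at 14.3 ± 2.46 and CCND2 at 13.9 ± 7.01 lay below the median gene, which was at 22.5 per kilobase. CCND1 at 2.52 ± 0.44, CCNE2 at 1.84 ± 2.04 and CDK6 at 0.549 ± 0.812 formed the low end. Neighbours in this order whose 6 libraries did not overlap were the unnamed CDK2 row and CCND3, CCNE1 and CDK4, CDK4 and RB1, the named CDK2 row and CDKN1B, and CCND2 and CCND1. The other neighbours overlapped. RefSeq transcripts of CCND3 range from 879 to 3007 bases, so its place is uncertain. With the shortest transcripts as length CCND3 reached 2147 per kilobase, above the lowest library of the unnamed CDK2 row at 2095, and those neighbours overlapped too. With these lengths CCND3 and CCNE1 no longer overlapped, at 1648 or more against at most 558 per kilobase. Nor did RB1, at 141 or more, and the named CDK2 row, at most 110.

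**Figure D3:**
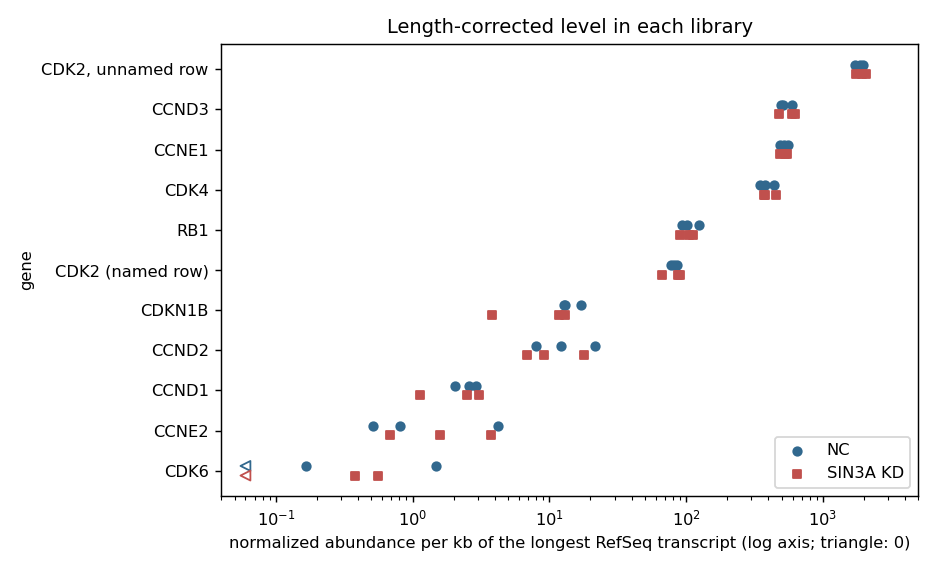
Normalized abundance per kilobase of the longest RefSeq transcript on a log axis, for each of the 11 rows, with circles for NC, squares for KD libraries and open triangles for libraries listed at 0. The order of the genes from the unnamed CDK2 row at 1863 down to CDK6 at 0.549 (NC means) holds a D-type cyclin, an E-type cyclin and CDK4 at 389 to 532.

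Other genes of the pathway were examined in 6 lists. None of their 55 tested genes passed the adjusted p, against 0.159% of all genes, and 3 had an unadjusted p below 0.05, against 4.61%. The KD values lay above all NC values in 2 of the 55 and below in 2, where 4.85% and 4.94% of all tested genes did so.

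Of the other CDK inhibitors, 6 of 7 were found and tested, with a median log2 fold change of -0.08. CDKN2B, an INK4 inhibitor of CDK4 and CDK6, was the highest of them at 683 ± 19.9 in NC and 598 ± 65.1 (SD, n = 3 each) in KD embryos (log2 change -0.20 ± 0.11 SE, limma adjusted p = 0.997). CDKN2D, another INK4 inhibitor, was the lowest at 30.6 ± 6.31 and 22.7 ± 4.82.

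Of the pocket protein relatives, E2F and DP factors, 12 were found and 11 tested, and their median log2 fold change was 0.12. E2F8, an atypical E2F that represses E2F targets, stood at 619, 578 and 599 in the NC libraries, against 437, 476 and 514 in the KD libraries. All KD libraries were below all NC libraries, but the log2 fold change of -0.33 ± 0.11 (SE, limma unadjusted p = 0.0101) had an adjusted p of 0.852 from limma over all genes. TFDP1, the dimerization partner of E2F factors, had means of 134 ± 2.68 in NC and 147 ± 7.86 in KD embryos without overlap (log2 change 0.14 ± 0.16 SE, limma adjusted p = 0.997). E2F4, an E2F that mainly acts as a repressor with pocket proteins, was the highest at 1594 ± 140 and 1759 ± 117, and E2F5 the lowest at 7.71 ± 2.52 and 5.51 ± 4.74, below the minimum for testing.

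The MuvB core joins RB1 relatives in the DREAM complex, which represses cell cycle genes, or binds MYBL2 to activate them. The 7 genes listed, the core, DYRK1A and MYBL2, had log2 fold changes from -0.07 to 0.12. DYRK1A, the kinase that assembles DREAM, had the highest mean over all libraries, at 2581 ± 289 in NC and 2667 ± 125 in KD embryos, and LIN37 the lowest at 56.0 ± 14.3 and 59.0 ± 9.45 (SD, n = 3 each). The 5 genes of CDK activation had a median log2 fold change of 0.00775. Among them CDC25A, the phosphatase that activates CDK2, had means of 1749 ± 146 and 1588 ± 25.1 (log2 change -0.14 ± 0.09 SE, limma adjusted p = 0.997), and CDK3 was the lowest at 20.9 ± 6.93 and 22.2 ± 1.48.

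All 15 genes of cyclin and p27 turnover, which include the SCF ubiquitin ligase with SKP2 or FBXW7, were tested, with a median log2 fold change of -0.02. CKS2, a small CDK-binding protein, stood at 486, 505 and 530 in the NC libraries, against 425, 375 and 470 in the KD libraries. Each KD library was below each NC library, at a log2 fold change of -0.27 ± 0.12 (SE; limma unadjusted p = 0.0466, adjusted p = 0.997). The row of CKS2 was named by its identifier. CUL4B, a cullin scaffold, was the highest at 3692 ± 478 in NC and 3693 ± 50.5 in KD embryos, and FBXO4 the lowest at 121 ± 20.4 and 93.3 ± 9.43.

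Of 15 E2F target genes of S phase entry, 12 were found and 11 tested, with a median log2 fold change of 0.00394. TYMS, at 5560 ± 1126 in NC and 4433 ± 1094 in KD embryos (SD), had overlapping groups. Its log2 fold change was -0.34 ± 0.15 (SE; limma unadjusted p = 0.0365, adjusted p = 0.997). PCNA, the sliding clamp of DNA polymerases, had means of 40846 ± 6962 in NC and 40630 ± 4526 in KD embryos. POLA2, a subunit of DNA polymerase alpha, stood at 117, 126 and 132 in the NC libraries, against 148, 139 and 142 in the KD libraries. The KD libraries were all higher, at a log2 fold change of 0.19 ± 0.17 (SE, limma adjusted p = 0.997). CCNA1, a cyclin A, was the lowest at 1.88 ± 2.04 and 4.88 ± 4.90 and was not tested.

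**Figure D4:**
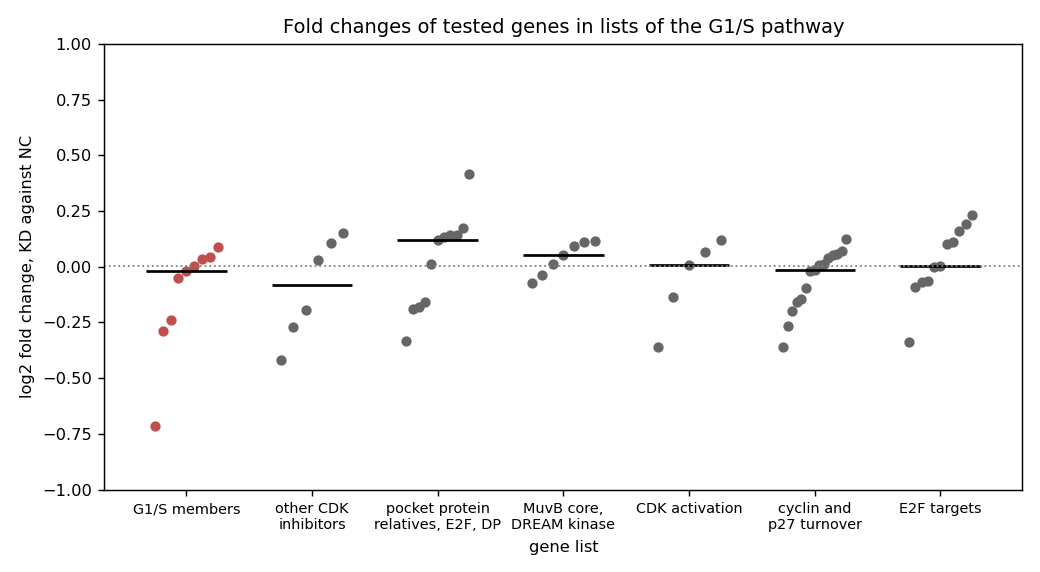
Log2 fold change of KD against NC embryos (vertical axis) for each tested gene of the G1/S group and of the 6 pathway lists, with a bar at each list's median and a dotted line at the median of all genes tested. Medians lie between -0.08 and 0.12, and the lowest point is CDKN1B at -0.71.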

How the data were processed

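Poly(A) RNA of 3 NC and 3 KD replicates was analysed. The paper cites changes in the poly(A) length of CCNB1 messenger RNA in early pig development. Whether poly(A) length affected the values of any gene was not tested. The authors assigned reads to Sscrofa11.1 transcripts with Salmon 0.14.1 and used DESeq2, per the submitters' processing notes, and they deposited normalized signal values per Ensembl gene, which are not counts. Groups come from the sample labels. Of 3575 rows without a name, 823 were named here by identifier, and for 14 more the symbol of the identifier was already held by another row. Where the table and the reference table both give a name, 368 of 13075 differ, and the row named CKS1B is one of them.

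Genes with a mean of at least 10 were tested on log2(value + 1) with limma 3.58.1 in R 4.3.3 (variance trend, Benjamini-Hochberg over all genes), a fit that was checked on simulated data. Fold changes on this scale understate those of low genes. Single values and ratios (pseudocount 1) were compared with the exact two-sided permutation test of scipy 1.17.1. Replicates were pools of 20 embryos, which the study describes as independent replicates. Whether each came from its own batch of oocytes is not given in the sources used here, and p-values measure the spread between these pools. Depth was estimated from the spacing of low values. The lower a value, the fewer reads stand behind it, and intervals cover the spread between libraries. Lengths, positions and sequences are from the RefSeq annotation of Sscrofa11.1. Gene lists and members were chosen with earlier results of these data known. Named genes are the members, SIN3A, CCNB1 and, from each list, genes past the adjusted p, genes without overlap between groups and the highest and lowest gene. TYMS was named after its values were seen, for its unadjusted p. Of the marker lists, at most 3 examples were to be named, by mean value, and PTX3 and CYP19A1 were named after their values were seen. Each fit was repeated with 0.1 or 10 as pseudocount, without the filter or with a minimum mean of 100, after rescaling by TMM-like factors or quantiles, without the variance trend, with a robust empirical Bayes step, with replicate number as a block, and without each library in turn. The shortest transcript as length was added after seeing the data. The study's methods mention no spike-in RNA. Protein and embryo culture data were not analysed here.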

Additional observations from a re-analysis of the deposited data

How the results depend on the processing

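None of the 9 tested rows passed an adjusted p of 0.05 by limma in any alternative, and the lowest adjusted p was 0.817. Of 132 comparisons of these rows with an alternative, 117 kept the direction and 15 reversed. Leaving out single libraries gave log2 fold changes from -0.49 to 0.14 for CCND1, from -0.66 to 0.0696 for CCND2, from -0.0412 to 0.0519 for CCNE1, from -0.10 to 0.12 for the named CDK2 row, from -0.0278 to 0.10 for ENSSSCG00000037597, from -0.0533 to 0.13 for CDK4 and from -0.14 to 0.0621 for RB1, and negative ones for CDKN1B throughout, from -1.01 to -0.18. Quantile normalization moved CCNE1 to -0.00660. The difference of the log2 ratio ranged from -1.11 to 0.28 for CCNE1 to CCNE2 and from -1.07 to 1.25 for CDK4 to CDK6. The count over all genes was 19, 0 without the variance trend (622 at an unadjusted p below 0.05) and 11 to 19 with single libraries left out. It was 12 without NC replicate 2 or NC replicate 3 and 11 without KD replicate 2. SIN3A and CCNB1 had adjusted p values of 0.423 each without the variance trend, and of 0.469 and 0.439 with the robust step. With the replicate block 26 genes passed, none of the group. Same-numbered libraries had correlations of 0.0872, 0.109 and 0.111 after subtraction of the group means. The main fit was set without pairs, and these values did not settle whether same-numbered libraries were pairs. With the shortest transcript as length the NC mean per kilobase was 1819 for CCND3 and 166 for RB1. It was 2254 for the unnamed and 99.0 for the named CDK2 row. CCNE2 came to 2.72, above CCND1 at 2.52, and the libraries of CCNE2 and CCND1 overlapped. For the results that changed, the cause was not tested. Depth limits CCND1, CCND2, CCNE2, CDK6 and CDKN1B, whose values stand for about 30 reads or fewer.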

Other observations

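Other cyclin and CDK genes were gathered after the values of the group were seen. By name or identifier, 30 more were found, 13 of them CDKs, and 29 were tested. None passed an adjusted p of 0.05 by limma, where 0.159% of all tested genes did, 1 had an unadjusted p below 0.05, where 4.61% did, and their median log2 fold change was -0.01. CCNY, a membrane-bound cyclin, was the highest at 7539 ± 438 in NC and 7330 ± 335 (SD, n = 3 each) in KD embryos. CCNK and CDK9, which act on RNA polymerase II, were at 3830 ± 212 and 3696 ± 117, and at 2364 ± 151 and 2290 ± 317. CDK10 had the largest log2 fold change, 1.12 (standard error 0.46, unadjusted p = 0.0275, adjusted p = 0.997 from limma), with values from 8.25 to 26.1 in NC and from 20.4 to 37.0 in KD libraries, so that the groups overlapped.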
